A study of Caenorhabditis elegans with 6 samples.

Results

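The cuticle collagens dpy-5, dpy-13, dpy-14, dpy-17, sqt-1, sqt-3, rol-6 and lon-3, which set the body shape of *Caenorhabditis elegans*, and bli-1 and bli-2, which build the struts of the adult cuticle, were followed in RNA sequencing of whole worms. These 10 genes were chosen by name, with earlier results of these data known, and found through their WormBase identifiers. They are 10 of the 46748 features in the table of read counts. All 6 libraries came from hermaphrodites of N2, the standard wild-type laboratory strain, at an age labelled 5 days. The labels do not say from which event that age was counted. The perturbation label named the gene Y6B3B.9 for 3 libraries and L4440 for the other 3; L4440 is a plasmid used without an insert as the control vector in feeding RNA interference. The labels do not say how the worms were exposed or in which direction Y6B3B.9 was meant to change, nor whether the libraries of a label came from separate cultures. The p-values below therefore measure only the spread between these libraries.

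The cuticle is secreted by the epidermis, first in the late embryo and again before each molt. Its collagens are short proteins built of Gly-X-Y repeats, which assemble into trimers, are cut by proteases and are crosslinked outside the cell. Loss of a dpy collagen typically gives a short, stout (dumpy) worm, mutations in sqt and rol collagens can twist the worm into a helix (roller), loss of lon-3 gives a long worm, and loss of a strut collagen lets fluid collect between cuticle layers as blisters. In wild-type worms collagen transcripts rise and fall with the molts, and most are low in mature adults. Since whole worms were used, a change in the number of cells of a type, or in embryos carried by the mother, and a change in RNA per cell cannot be told apart.

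Libraries held between 23103541 and 32012257 counted reads. The gene Y6B3B.9 had 1057, 1211 and 969 reads under its own label and 578, 557 and 666 reads under the L4440 label. It was thus higher under its own label, with 0.65 as the log2 change and 0.074 as its SE (adjusted p = 1.26e-06 in edgeR). Directions below are stated between labels, and a gene that "rose" had its higher level under the Y6B3B.9 label. Most genes differed between the labels: 84.1% of the 14265 genes tested were called at an adjusted p of 0.05, 46.4% higher and 37.7% lower, with a median log2 change of 0.22. The median shifted by -0.15 with DESeq2's size factors in place of TMM and by 0.29 with library totals. With no filter on reads it was 0.44. Libraries labelled Y6B3B.9 had 19698 to 20455 genes with a read, against 18195 to 18830 under the L4440 label. The shares of all genes tested cover only genes past the filter and are not matched to the read level of the members.

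All 10 collagens rose, against 46.4% of all genes tested, and each rose at least 2-fold, which 23.6% of all genes tested did (edgeR quasi-likelihood test with Benjamini-Hochberg adjustment over all genes tested). In none of the 10 did the 3 libraries of one label overlap the 3 of the other in CPM (read counts scaled to library size with TMM factors), and Y6B3B.9 was the higher label each time. Of all genes tested, 85.4% had no such overlap in either direction and 47.1% had none with Y6B3B.9 higher. The median log2 change of the collagens was 2.59. The ratio of mean CPM ran from 3.51 for dpy-17 to 9.23 for bli-2. The log2 change of dpy-17 exceeded that of 93.9% of tested genes, and that of bli-2 exceeded 98.9%. Members of few reads under the L4440 label, such as bli-2, could pass the filter on reads through the Y6B3B.9 label alone. These counts and percentiles therefore describe only the genes tested and are no test of the list. Together the 10 genes took 0.0114%, 0.0109% and 0.00964% of counted reads under the Y6B3B.9 label, compared with 0.00182%, 0.00176% and 0.0019% under the L4440 label. Taking that share scales each library by its own total, which moved the median log2 change of all genes tested by 0.29 against TMM. For the share p was 0.1 in an exact permutation test, two-sided, which is the lowest value possible with 3 libraries per label. In both labels these are minor transcripts, and single libraries held as few as 1 read of a member.

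**Figure D1:**
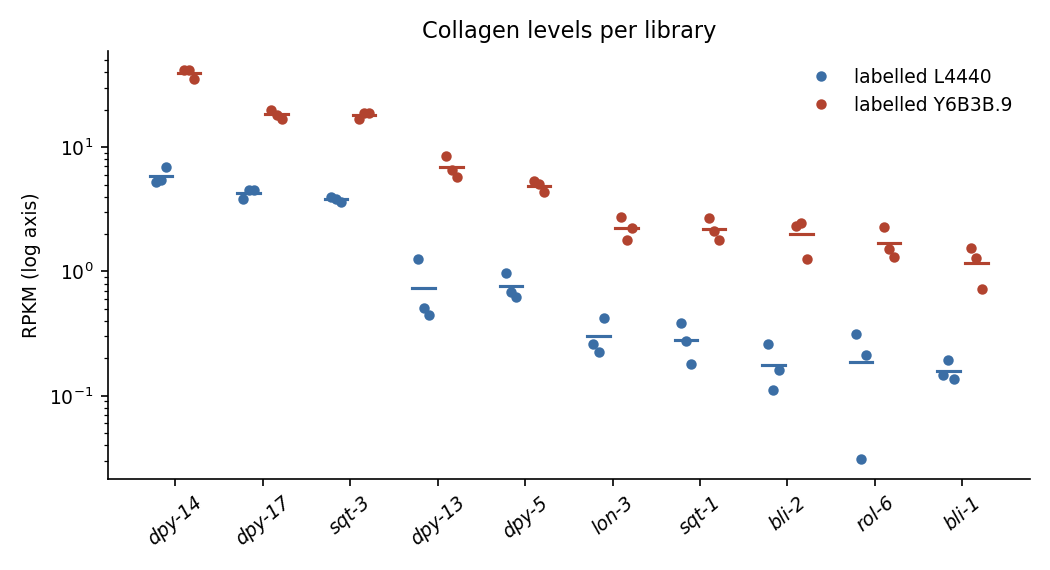
RPKM (reads scaled by gene length and library total, log axis) of each collagen in each library, with blue points for the 3 libraries labelled L4440, red points for the 3 labelled Y6B3B.9 and a line at each label's mean. For every gene all red points lie above all blue points, and dpy-14, dpy-17 and sqt-3 are the highest 3 genes under both labels.

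The members dpy-14, dpy-17 and sqt-3 carried most of the signal. dpy-14, a collagen whose loss gives a severe dumpy phenotype, lies on chromosome I at 6843589 to 6845142 (build WBcel235, plus strand) and its transcript has 4 exons. Its reads numbered 1298, 1263 and 843 under the Y6B3B.9 label, compared with 149, 158 and 231 under L4440. In CPM this was 37.1 ± 3.42 against 6.75 ± 1.04 (SD, n = 3 each), and the fitted log2 change was 2.45 with an SE of 0.10 (edgeR adjusted p = 3.83e-11). No other member had a smaller p. The lowest library labelled Y6B3B.9, replicate 3, still stood well above the highest labelled L4440, also a replicate 3.

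sqt-3, a collagen needed in embryos and larvae whose product is processed by the astacin protease DPY-31, lies on chromosome V at 12352745 to 12354320 (plus strand). Its reads were 593, 642 and 512 against 127, 124 and 136. The level was 19.3 ± 1.31 CPM against 4.91 ± 0.215 CPM (SD, n = 3 each), and the log2 change was 1.97 (SE 0.094, edgeR adjusted p = 1.12e-10). Libraries of one label were closer to each other for sqt-3 than for any other member. A non-coding RNA annotated within it on the other strand took 4 reads over all 6 libraries.

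dpy-17, which acts together with sqt-3 in worm genetics, lies on chromosome III at 5107330 to 5108492 (plus strand, 2 exons). It took 673, 598 and 440 reads under the Y6B3B.9 label and 118, 142 and 162 under the L4440 label. Its level of 18.7 ± 1.44 CPM against 5.33 ± 0.53 CPM (SD, n = 3 each) gave the smallest change of the 10, log2 1.81 (SE 0.10, edgeR adjusted p = 4.91e-10).

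dpy-13 and dpy-5, whose loss also makes worms dumpy, were lower in level. dpy-13 (chromosome IV, 4235614 to 4236710, plus strand, 3 exons) took 253, 187 and 130 reads under the Y6B3B.9 label, compared with 34, 14 and 14 under L4440. The log2 change was 2.97 (SE 0.28, edgeR adjusted p = 3.2e-07), with 6.17 ± 1.27 CPM against 0.802 ± 0.486 CPM (SD, n = 3 each). L4440 replicate 1, with 34 reads, stood above the other libraries of its label, and without it the log2 change was 3.55. dpy-5 (chromosome I, 5432197 to 5433051, minus strand, 1 exon) took 144, 131 and 90 reads against 24, 17 and 18. Its level rose from 0.754 ± 0.182 to 3.98 ± 0.397 CPM (SD, n = 3 each), or 2.41 on the log2 scale (SE 0.19; adjusted p = 2.5e-08 in edgeR).

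The collagens named for rolling and for length were all low. sqt-1 and rol-6 are known partners in worm genetics, and a dominant roller allele of rol-6 is a common marker for transgenic worms. For sqt-1 (chromosome II, 11336693 to 11337837, minus strand) the reads were 84, 65 and 43 under the Y6B3B.9 label and 11, 8 and 6 under the L4440 label. This gave 2.08 ± 0.417 CPM against 0.323 ± 0.117 CPM (SD, n = 3 each) and 2.71 as the log2 change (SE 0.28; adjusted p = 4.72e-07 in edgeR). For rol-6 (chromosome II, 8733050 to 8734239, plus strand) the reads were 80, 51 and 35 against 10, 1 and 8. The single read of L4440 replicate 2 made rol-6 the member with the widest spread within a label. Its log2 change was 2.89 (SE 0.40, edgeR adjusted p = 1.21e-05), and 2.4 without L4440 replicate 2. Over the summed reads, 166 against 19, the scaled ratio was 7.59 with a 95% counting interval of 4.71 to 12.9 (exact binomial, counting error only).

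lon-3, whose dosage sets body length in worms, lies on chromosome V at 12197437 to 12198645 (minus strand, 2 exons). Reads numbered 91, 58 and 57 under the Y6B3B.9 label and 8, 7 and 15 under L4440, or 2.26 ± 0.463 CPM against 0.372 ± 0.125 CPM (SD, n = 3 each). The log2 change was 2.56 (SE 0.27, edgeR adjusted p = 5.62e-07). The gene lies within an intron of ogdh-2, on the other strand, and the libraries are not stranded. ogdh-2 itself was at -0.09 (log2 change, SE 0.052, edgeR adjusted p = 0.137), and it ran from -0.24 (called lower, DESeq2's size factors) to 0.20 (called higher, library totals) over the alternatives.

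Both strut collagens among the 10 members rose as well. bli-1 is the longest of the 10 genes, with 5 exons and 3010 spliced bases on chromosome II at 10708960 to 10712156 (plus strand). Under the Y6B3B.9 label it took 137, 111 and 50 reads and under L4440 12, 16 and 13. Its level was 3.17 ± 1.1 CPM against 0.523 ± 0.105 CPM (SD, n = 3 each), a log2 change of 2.63 ± 0.30 (SE; adjusted p = 1.3e-06 in edgeR). bli-2, on chromosome II at 5651394 to 5652434 (minus strand, 2 exons), took 68, 69 and 28 reads against 7, 3 and 5. The rise from 0.191 ± 0.0816 to 1.76 ± 0.574 CPM (SD, n = 3 each) was the largest of the 10, log2 3.21 (SE 0.37, edgeR adjusted p = 1.28e-06). With so few reads under the L4440 label the scaled ratio of summed reads was 9.55 with a 95% counting interval of 5.63 to 17.5. In both genes Y6B3B.9 replicate 3 was the low library of its label and L4440 libraries lay below it. Each lies within the span of a gene on the other strand, bli-1 within dph-2 (7 shared exon bases) and bli-2 within zyg-1 (none shared). Those genes fell, dph-2 by 0.45 on the log2 scale (SE 0.059, edgeR adjusted p = 5.07e-06) and zyg-1 fell by 1.32 (SE 0.05, edgeR adjusted p = 1.71e-11), opposite to the collagens inside them. dph-2 was not called on deposited RPKM, at -0.25.

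**Figure D2:**
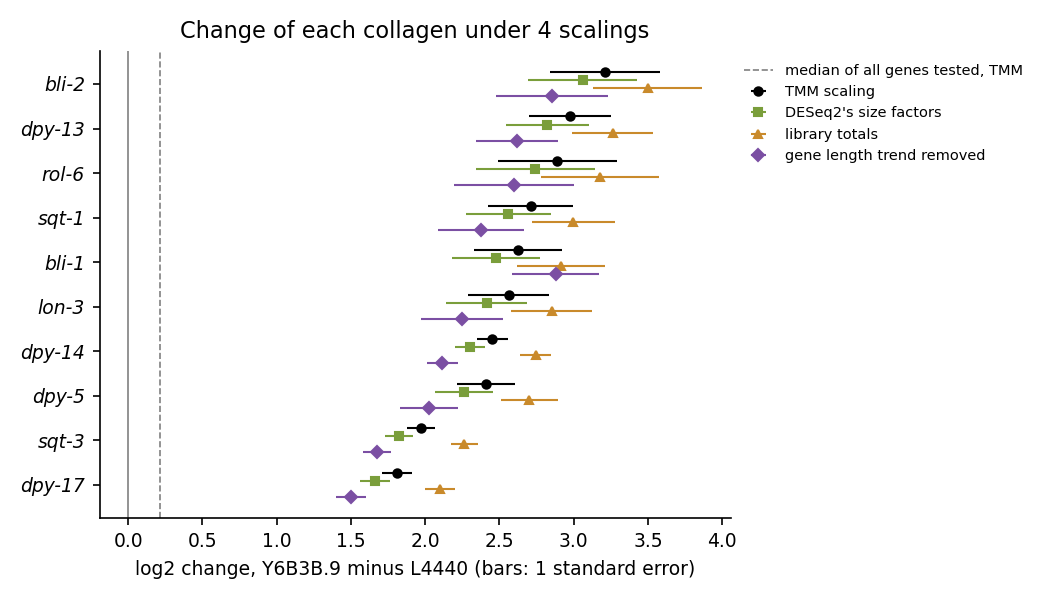
Log2 change of each collagen (Y6B3B.9 minus L4440, points, with bars of 1 standard error) with TMM scaling, DESeq2's size factors, library totals, or with the trend of change on gene length removed; the dashed line is the median of all genes tested with TMM, 0.22. Every point lies above 1, dpy-17 and sqt-3 have the smallest changes in each setting, and removing the length trend lowers 9 genes and raises bli-1.

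Short genes tended to rise in these libraries, so the changes were also computed with a smooth trend of log2 change on gene length removed. The 9 members other than bli-1 have lengths between 897 and 1167 bases, where the trend lay between 0.30 and 0.39. For bli-1, at 2978 bases, it was -0.25. With the trend removed all 10 collagens still rose, from log2 1.5 (dpy-17, SE 0.10, edgeR adjusted p = 3.33e-09) to 2.88 (bli-1, SE 0.29, edgeR adjusted p = 4.19e-07), with a median of 2.31 beside -0.03 for all genes tested. bli-1 and bli-2 (2.85, SE 0.38) then had the largest changes of the 10.

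**Figure D3:**
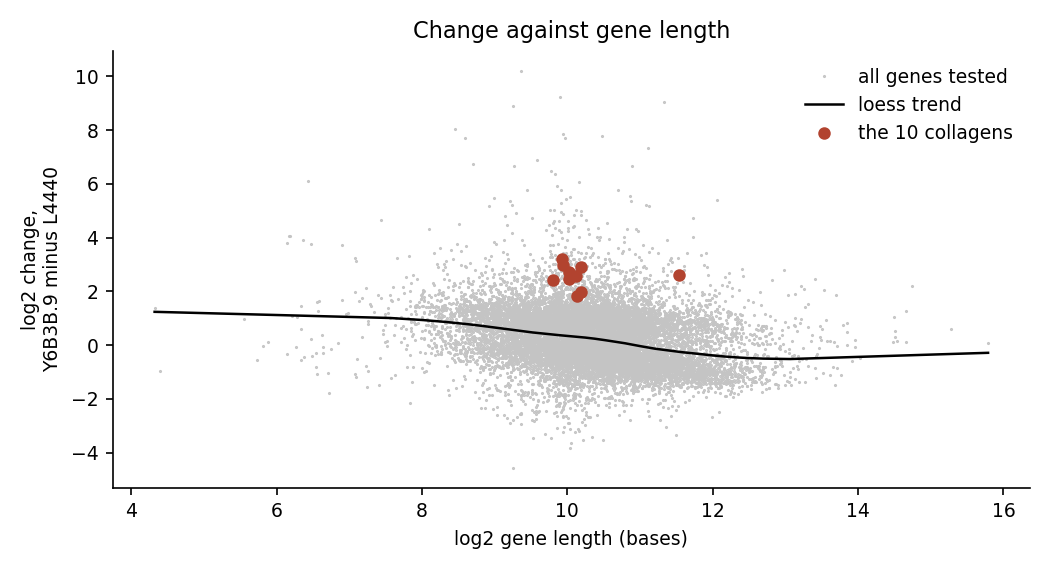
Log2 change (Y6B3B.9 minus L4440) against log2 gene length in bases for all 14265 genes tested (grey), the loess trend (line) and the 10 collagens (red). The collagens lie above the trend, 9 of them at similar short lengths and bli-1 alone at 2978 bases.

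Compared per length, in RPKM with each library's own total, the order of the levels was nearly the same under both labels. In the libraries labelled Y6B3B.9 dpy-14 stood first at 39.4 ± 3.77 RPKM (SD, n = 3), followed by dpy-17 at 18.4 ± 1.51 and sqt-3 at 18.3 ± 1.15, which overlapped. dpy-13 (6.93 ± 1.47 RPKM) and dpy-5 (4.9 ± 0.512 RPKM) came next and did not overlap each other or their neighbours. lon-3, sqt-1, bli-2, rol-6 and bli-1 followed between 2.25 and 1.18 RPKM, each overlapping the next. In the libraries labelled L4440 dpy-14 was at 5.86 ± 0.934 RPKM, dpy-17 at 4.29 ± 0.409 and sqt-3 at 3.81 ± 0.158, of which the last pair overlapped. dpy-5 (0.76 ± 0.186 RPKM) and dpy-13 (0.736 ± 0.45 RPKM) overlapped, and lon-3, sqt-1, rol-6, bli-2 and bli-1 ran from 0.304 down to 0.159 RPKM with each overlapping the next. Among all genes tested, the level of dpy-14 lay above 72.5% of genes under the Y6B3B.9 label and above 46.6% under the L4440 label, and that of bli-1 above 15.4% and 3.42%.

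Within a library, the make-up of the collagen pool can be compared without any scaling. dpy-14 made up 40.5% ± 1.18 of the summed RPKM of the 10 genes under the Y6B3B.9 label and 35.3% ± 4.45 under the L4440 label (SD, n = 3 each), with overlapping libraries. dpy-17 made up 18.9% ± 0.481 against 25.9% ± 2.82, and it was the one gene of the 10 whose share did not overlap between labels (exact permutation p = 0.1, the smallest possible, or 0.375 after Benjamini-Hochberg adjustment over the 10 shares). The share of sqt-3 was 18.9% ± 2.6 against 23% ± 1.68, with overlap. bli-1 and bli-2 were also set against the 8 body shape collagens, as a log2 ratio of summed RPKM. This strut ratio was -4.69, -4.69 and -5.45 under the Y6B3B.9 label and -5.30, -5.67 and -5.83 under L4440. Y6B3B.9 replicate 3 fell among the L4440 libraries, so the labels overlapped. The means differed by 0.66, beside SDs of 0.44 (Y6B3B.9) and 0.27 (L4440). The exact two-sided permutation p was 0.2, where 0.1 is the smallest possible.

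Most members also varied together among the 3 libraries labelled Y6B3B.9. Replicate 1 was the highest library of its label for 7 of the 10 genes and replicate 3 the lowest for 8, with median deviations from the label's mean log2 CPM of 0.28 and -0.21. Replicate 2 lay between, at 0.02. sqt-3 went the other way, lowest in replicate 1 (-0.12) and highest in replicate 3 (0.06). Over 14180 tested genes with reads in every library these medians were 0.01 and -0.01 for replicates 1 and 3. TMM scaling itself keeps such medians over all genes close between libraries, so they cannot show how unusual the members are. In the libraries labelled L4440 the median deviations were 0.21, -0.10 and -0.07, on far fewer reads. The 10 other named cuticle collagens were also low in Y6B3B.9 replicate 3, with a median deviation of -0.21, as were 9 genes of the embryonic and pre-cuticle apical matrix, at -0.29. Y6B3B.9 replicate 3 was also the library with the fewest reads, 23103541. The part of depth or of worm stage in this spread was not tested.

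**Figure D4:**
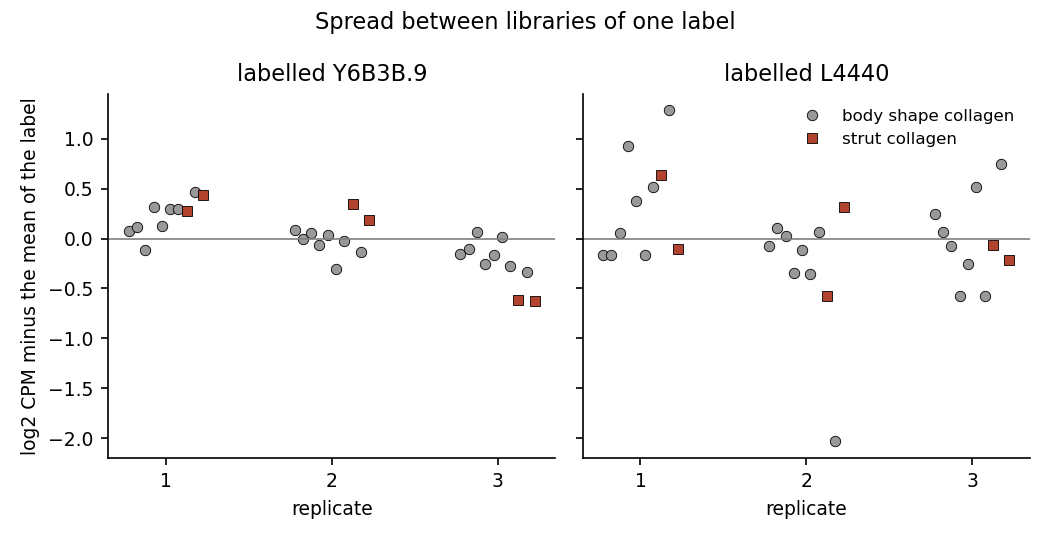
Log2 CPM of each collagen minus its mean over the label, for the 3 libraries labelled Y6B3B.9 (left) and the 3 labelled L4440 (right); grey circles are body shape collagens and red squares the struts. In Y6B3B.9 replicate 3 the struts lie lowest, at -0.62 each, and in L4440 replicate 2 the point at -2.03 is rol-6 with its single read.

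Other genes of cuticle collagen biology moved to different degrees. The 10 other named cuticle collagens, among them those of the annular furrows between body rings, all rose, with a median log2 change of 2.82. The furrow collagens dpy-7 (2.99, SE 0.20, edgeR adjusted p = 3.07e-09) and dpy-2 (2.90, SE 0.20, edgeR adjusted p = 5.69e-09) had the smallest p. Of 156 collagens with a numbered col name, 109 passed the filter on reads and were tested. Among those 109, 96 rose and 2 fell, with a median of 1.44. A gene of few reads can pass the filter through the label where it is higher, so these counts describe only the genes tested. Of 9 genes of the embryonic and pre-cuticle apical matrix, the transient coat that precedes and shapes the cuticle, 8 rose, such as the lipocalin gene lpr-3 (3.29, SE 0.13), and 1 fell, egg-6 (-1.35, SE 0.049).

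Genes for making and joining collagen changed less than the collagens. Of 6 tested genes for folding and hydroxylation, phy-2 (0.90, SE 0.071), a prolyl 4-hydroxylase subunit, and pdi-2 (0.15, SE 0.051), its disulfide isomerase partner, rose. pdi-1 fell (-0.57, SE 0.047), though it was not called on deposited RPKM (-0.37). The hydroxylase gene dpy-18 was not called (-0.10, SE 0.063, edgeR adjusted p = 0.147). The listed gene phy-4 did not pass the filter, with 13 reads under the Y6B3B.9 label and 0 under L4440. dpy-18 was called lower with DESeq2's size factors (-0.25), in the DESeq2 Wald test (-0.25), with no filter (-0.20) and without L4440 replicate 2 (-0.17), and higher with library totals (0.19) and on RPKM with own totals (0.19). The call of pdi-2 ended with DESeq2's size factors (-0.00156), with no filter (0.05), on deposited RPKM (0.35), without Y6B3B.9 replicate 2 (0.13) and without L4440 replicate 2 (0.10). Over all alternatives 1 to 5 of these genes were called higher and 0 to 3 lower. Among the 3 processing genes, the protease gene dpy-31 (0.48, SE 0.067) and the protease inhibitor gene bli-5 (1.44, SE 0.35) rose, while bli-4 (-0.25, SE 0.053), the proprotein convertase that cuts collagen precursors, fell. bli-4 was at 0.04 with library totals and -0.05 on deposited RPKM, not called in either, and without the length trend it was at 0.19 and called higher. Of 5 crosslinking genes, 4 rose, with the peroxidase gene skpo-1 at 0.56 (SE 0.058) and the tetraspanin gene tsp-15 at 0.60 (SE 0.11), and the dual oxidase gene bli-3 was not called (-0.12, SE 0.092, edgeR adjusted p = 0.219). bli-3 was called higher, at 0.31, with the length trend removed, and lower with DESeq2's size factors (-0.27), in the DESeq2 Wald test (-0.28) and with no filter (-0.22). The peroxidase gene mlt-7 (0.32, SE 0.094) and the oxidase maturation factor gene doxa-1 (0.60, SE 0.18) rose too, but neither was called in the DESeq2 Wald test (0.17 and 0.46). mlt-7 also lost its call with DESeq2's size factors (0.17), with no filter (0.22), on deposited RPKM (0.51 and 0.42 with pseudocounts of 0.1 and 1) and without L4440 replicate 2 (0.23).

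Signalling and transcription factors of the epidermis went both ways. The DBL-1 pathway, a BMP-like signal that sets body size, had 10 of 12 listed genes higher, against 46.4% of all genes tested. The median was 0.88, and crm-1 (1.55, SE 0.077) was among those higher. Such a count does not say whether signalling through the pathway changed. A receptor gene of the pathway, daf-4, fell (-1.61, SE 0.051), as did sma-9 (-0.14, SE 0.057). sma-9 was at 0.15 with library totals and at 0.38 with the length trend removed. It lost its call when replicate 2 (-0.15) or 3 (-0.09) of the Y6B3B.9 label was left out. The same held without replicate 3 of the L4440 label (-0.13) and with the filter of 1 CPM (-0.05). Of 9 epidermal transcription factors 5 rose and 3 fell, shares near those of all genes tested (46.4% higher and 37.7% lower). nhr-25 (1.57, SE 0.15), grh-1 (1.24, SE 0.17), blmp-1 (0.86, SE 0.095), elt-3 (0.76, SE 0.14) and lin-29 (0.55, SE 0.15) rose. Of these, lin-29 was not called in the DESeq2 Wald test (0.40). nhr-23 (-1.08, SE 0.063), lin-42 (-1.14, SE 0.14) and elt-1 (-0.25, SE 0.098) fell. elt-1 was at 0.04 with library totals and lost its call in the same 4 cases (-0.26, -0.20, -0.16 and -0.16) and on deposited RPKM (-0.05 and -0.04 with pseudocounts of 0.1 and 1).

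**Figure D5:**
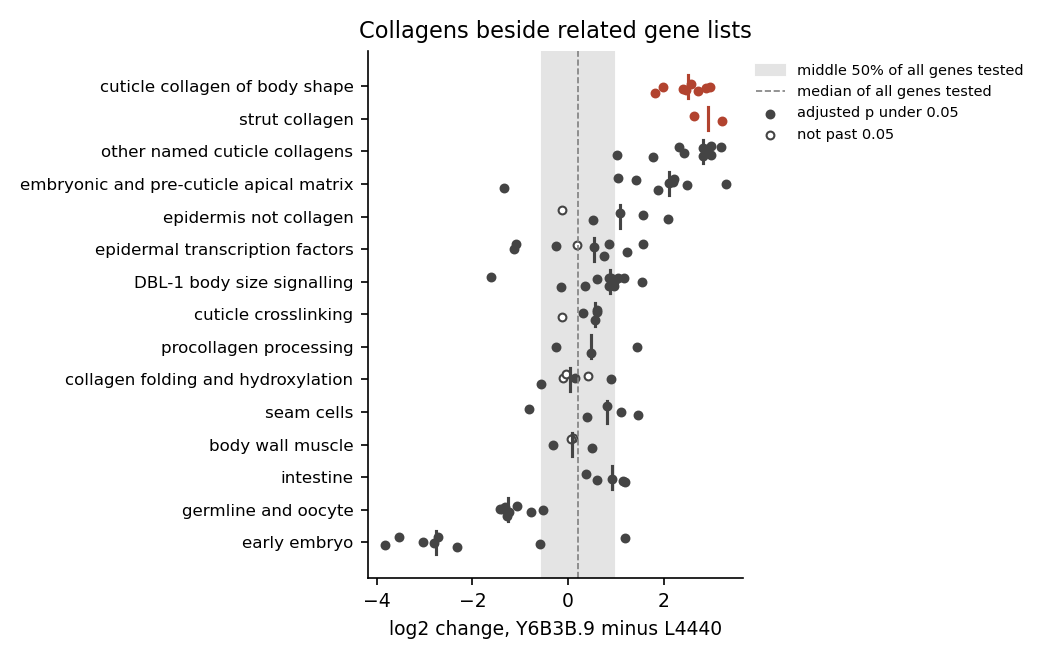
Log2 change (Y6B3B.9 minus L4440) of every tested gene of each list, filled where the adjusted p is under 0.05 and open where it is not, with a bar at each list's median; the body shape and strut collagens are red, the grey band holds the middle 50% of all genes tested and the dashed line is their median, 0.22. The collagens and the apical matrix genes lie to the right of the band with egg-6 as the exception, and germline and early embryo genes lie mostly to its left.

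Markers of the tissues in a whole worm moved with the labels. All 8 germline and oocyte markers fell, with a median log2 change of -1.26 and a summed share of 0.499% to 0.517% of reads under the Y6B3B.9 label against 0.911% to 0.954% under the L4440 label. rme-2, the yolk receptor of oocytes, was at -1.42 (SE 0.052) and the meiotic axis gene htp-3 at -1.28 (SE 0.048). Of 8 early embryo markers tested 7 fell, with a median of -2.76. The summed share of the list was 0.00203% to 0.00267% against 0.00964% to 0.0147%. vet-6 (-3.04, SE 0.18) and pes-10 (-3.53, SE 0.25) had the smallest p and tbx-38 (-3.82, SE 0.32) the largest fall. ceh-51 rose (1.18, SE 0.33), though it was not called in the DESeq2 Wald test (1.05). The listed marker end-1 did not pass the filter, with 28 reads under the Y6B3B.9 label and 10 under L4440. All 5 intestinal markers rose, with a median of 0.92 and 0.143% to 0.148% of reads against 0.07% to 0.0767%, including the gut esterase gene ges-1 (1.19, SE 0.055) and the actin gene act-5 (0.92, SE 0.048). Of 4 muscle markers tested mup-2 rose (0.50, SE 0.081), myo-3 fell (-0.32, SE 0.078), and unc-15 (0.10, SE 0.094, edgeR adjusted p = 0.345) and unc-54 (0.06, SE 0.091, edgeR adjusted p = 0.521) were not called. With the length trend removed, unc-15 (0.40) and unc-54 (0.56) were called higher and myo-3 (0.17) was not called, which made 3 higher and 0 lower, and the counts were the same with library totals. The list took 0.0529% to 0.0576% of reads against 0.0355% to 0.0466%.

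In the epidermis, the tissue that makes the collagens, 4 of 5 markers other than collagens rose, with a median of 1.09 and a summed share of 0.0311% to 0.0339% against 0.0167% to 0.0195%. mlt-11, which acts in molting, rose by log2 2.08 (SE 0.18) and the spectraplakin gene vab-10 by 0.52 (SE 0.06). rdy-2 (1.56, SE 0.23) and che-14 (1.09, SE 0.18) rose too, and bli-3, described above, was the gene not called. Of 5 seam cell markers tested 4 rose and egl-18 fell (-0.81, SE 0.052), the summed share being 0.00612% to 0.00667% against 0.0069% to 0.00707%, and grd-3 was at 1.11 (SE 0.12). The other 3 that rose were grd-10 (1.45, SE 0.35), elt-6 (0.40, SE 0.11) and wrt-2 (0.82, SE 0.30). Of the seam cell markers 2 in place of 4 were called higher with the length trend removed, where elt-6 (0.23) and wrt-2 (0.67) lost their calls, and likewise in the DESeq2 Wald test (0.24 and 0.68). The filter of 1 CPM left out grd-10 and wrt-2. wrt-2 also lost its call with DESeq2's size factors (0.67), with no filter (0.72) and without L4440 replicate 1 (0.60). No matched marker of these lists was at 0 reads under either label. The 10 collagens had larger changes, 1.81 to 3.21, than each of the intestinal and muscle markers and than each epidermal marker except mlt-11. The part that tissue make-up, embryos in the mother or worm stage had in the rise of the collagens was not tested.

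Outside these lists, the 5 genes of at least 5 CPM whose log2 CPM over the 6 libraries was most like the mean profile of the collagens were acbp-3, B0228.6, C37C3.2, C49A9.9 and hum-8, each with Pearson r between 0.999 and 1.000. Likeness in r says nothing of size, as their log2 changes lay between 0.40 (C37C3.2) and 1.18 (acbp-3). Of 8863 genes compared, 234 had r over 0.99, since r over 6 libraries in 2 groups mostly reflects the difference between labels. Each collagen had r between 0.881 (rol-6) and 0.993 (dpy-5) with the mean of the other 9.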

How the data were processed

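For each of the 6 libraries the authors deposited gene-level raw counts and RPKM values. Per the labels' protocols, libraries came from the unstranded TruSeq RNA kit v2. The tools listed in the submitters' processing notes are featureCounts 1.4.6-p4, STAR 2.4.1d and bcl2fastq 1.8.4, with build WBcel235 and no options. The deposited RPKM had used the 6 library totals in rotation down the rows: for 4330 of 4330 genes with at least 1000 reads per library the implied length was constant, within 0.1%, with rotated totals, and for 0 with each library's own. RPKM was therefore recomputed from the counts with each library's own total and the implied gene length. Positions come from Ensembl's WBcel235 annotation.

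Counts were tested over the 14265 genes kept by filterByExpr with edgeR 4.0.16 in R 4.3.3 (TMM, glmQLFit and glmQLFTest, robust=TRUE, Benjamini-Hochberg, threshold 0.05); standard errors come from the F statistic. The alternatives were DESeq2 1.42.0 (size factors in edgeR, and its Wald test without independent filtering), library totals, no filter, at least 1 CPM in 3 libraries, robust=FALSE, limma 3.58.1 (voom, or trend on log2(RPKM + 0.1 or 1)), a loess length trend (span 0.5) removed through offsets, and each library left out. Libraries of a label differed by more than sampling noise (chi-square per degree of freedom 3.79 to 14.0). Replicate numbers follow the order of records and pair nothing.

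The members and lists were chosen with earlier results of these data known. The text names all members, the 2 genes of smallest p in each list of related or marker genes, and the 5 most alike genes; called genes on a side with 5 or fewer could be named too, and not all are. The numbered col genes are given as counts. dpy-18, phy-4, bli-3, end-1, tbx-38, unc-15 and unc-54 were added after their values were seen. The muscle marker tni-2 matched no gene name. Collagen genes resemble each other, and how reads shared between them were counted is not given. Protein and promoter sequences were not analysed here. Figures were drawn with matplotlib 3.10.9.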

Additional observations from a re-analysis of the deposited data

How the results depend on the processing

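All 10 collagens stayed called higher in each of the 17 alternatives (170 of 170 values), with a largest adjusted p of 0.000138, for rol-6. Their median log2 change of 2.59 became 2.88 with library totals, 2.31 with the length trend removed and 1.48 on deposited RPKM with a pseudocount of 1, and lay between 2.39 and 2.69 with a library left out. A pseudocount of 1 exceeds the level of most members under the L4440 label, and bli-1 was lowest there, at 0.86. Of the 54 tested genes of related lists, 8 were lower by TMM, against 11 with DESeq2's size factors, in its Wald test or with no filter, 5 with library totals, 4 on deposited RPKM with a pseudocount of 0.1 or 1, and 5 on RPKM with own totals. Signs changed for 8 other named genes. With library totals bli-4 was at 0.0431, sma-9 at 0.15, elt-1 at 0.0392, ogdh-2 at 0.204, dpy-18 at 0.189 and bli-3 at 0.167, and on RPKM with own totals these were at 0.0407, 0.144, 0.0395, 0.201, 0.185 and 0.154. On deposited RPKM with pseudocounts of 0.1 and 1, sma-9 was at 0.0531 and 0.050, ogdh-2 at 0.109 and 0.107, dpy-18 at 0.0935 and 0.0895, and bli-3 at 0.0651 and 0.0527. With the length trend removed bli-4 was at 0.195, sma-9 at 0.376, bli-3 at 0.307, ogdh-2 at 0.18 and myo-3 at 0.169. With DESeq2's size factors pdi-2 was at -0.00156 (-0.00159 in its Wald test), and ogdh-2 was at 0.00882 with the filter of 1 CPM. The median of all genes tested was -0.026 with the length trend removed. The causes were not tested. Of 965 values of other named genes 885 kept direction and call, 41 kept direction but lost the call and 11 gained one. The difference in the strut ratio was 0.51 without division by length and lay between 0.53 and 0.92 with a library left out. No paired analysis was possible because the labels give no shared replicate numbers. Depth limits the members under the L4440 label, where bli-2, rol-6, sqt-1 and lon-3 had 15 to 30 reads in all.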
